A study of Homo sapiens with 18 samples.

Results

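The 6 arrays that carry the names of the pancreatic cancer lines Panc1005 and SU8686 fell into 2 expression states, which divided replicate 2 of both names from replicates 1 and 3 of both names. The 2 arrays titled replicate 2 were set against the 4 titled replicates 1 and 3, so 6 of the 18 arrays of the series are described. The arrays were selected on their measured values in the non-normalized intensity table, in which replicate 2 stood apart, and the differences across it are therefore descriptions with no test.

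Panc1005 was labelled sensitive and SU8686 resistant to dasatinib, a kinase inhibitor whose targets include ABL and SRC. Both are established lines of human pancreatic cancer, no drug was named for the cells before extraction, and the 6 arrays shared a slide. Total RNA was hybridised to Illumina HT-12 v4 BeadChips, with 3 arrays per line described as biological triplicates. The other 12 arrays carried 4 more lines on 2 further slides, each line again with replicates 1 to 3. Line names below are those of the labels and say only which name an array carries.

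CDKN2A encodes the cell cycle inhibitor p16 and, from another reading frame, ARF, which stabilises p53. It lies on chromosome 9 beside MTAP, an enzyme that salvages adenine and methionine, and both are often lost together by deletion in pancreatic cancer. N-cadherin, the product of CDH2, is the adhesion molecule of mesenchymal and neural cells, while E-cadherin, the product of CDH1, holds epithelial cells together.

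Values are normalized log2 intensities of 1 probe per gene, and a difference is the mean of the 2 replicate 2 arrays minus the mean of the 4 others, unless stated. Of 10652 measured genes, 1473 (13.8%) were higher and 1354 (12.7%) lower in replicate 2 by at least 1 with no overlap between the 2 sets of arrays. The median difference over all genes was -0.02. In RNA of whole cultures, fewer cells with a transcript and less transcript per cell cannot be told apart. A gene was called on in a set when its probe was detected (detection p under 0.01) on every array of the set, and off when detected on none, with means apart by at least 3. By this definition 141 genes (1.32%) were on in replicate 2 and off in replicates 1 and 3, and 29 genes (0.272%) were the reverse. The detection pattern alone held for 559 and 200 genes. SRPX (3.01) and HSD17B14 (3.02) lay just inside the limit of 3 and NSUN7 and PLA2G7 (2.99 each) just outside, and on the other side SNORD3C (-3.03) and SLC16A9 (-3.04) lay inside and TSPAN33 (-2.99) and ZNF586 (-2.97) outside.

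Between replicates 1 and 3 of the same name, 0 genes were on and off in this sense, and 38 genes of Panc1005 (0.357%) and 18 of SU8686 (0.169%) differed by at least 1. Across genes, which share the array and its normalization, replicates 1 and 3 of the same name correlated at r = 0.994 and those of different names at 0.967 to 0.97. The 2 replicate 2 arrays correlated at 0.906 with each other, at 0.828 to 0.84 with replicates 1 and 3 of their own name and at 0.776 to 0.842 with those of the other name. With the 12 arrays of the other slides, replicate 2 of Panc1005 correlated at 0.749 to 0.867 and replicate 2 of SU8686 at 0.7 to 0.853. The share of probes detected was 33.7% and 33.5% in replicate 2 and 31% to 32.4% in the 4 others, and median intensities ran from 115.4 to 134.6 on the linear scale over the 6 arrays.

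Promoters of 2 genes that were on in replicate 2 (LDHB and AGR2) and of 2 that were off there (MGMT and MTAP) are given to show the sequence in front of genes read as on in 1 set of arrays and off in the other. The RefSeq table matched 109 of the 141 and 20 of the 29 genes by symbol. They are RefSeq stretches of 300 bases that span the start of each gene, on build GRCh38.p14, written 5′ to 3′ on the strand of the gene, with every CG dinucleotide in capitals.
LDHB, chr12:21657793-21658092, minus strand: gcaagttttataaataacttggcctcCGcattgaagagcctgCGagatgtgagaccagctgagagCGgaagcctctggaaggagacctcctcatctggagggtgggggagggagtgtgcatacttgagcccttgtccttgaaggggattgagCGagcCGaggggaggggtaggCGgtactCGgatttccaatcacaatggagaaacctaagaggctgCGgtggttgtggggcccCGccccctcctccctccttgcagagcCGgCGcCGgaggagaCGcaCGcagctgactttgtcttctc
AGR2, chr7:16804950-16805249, minus strand: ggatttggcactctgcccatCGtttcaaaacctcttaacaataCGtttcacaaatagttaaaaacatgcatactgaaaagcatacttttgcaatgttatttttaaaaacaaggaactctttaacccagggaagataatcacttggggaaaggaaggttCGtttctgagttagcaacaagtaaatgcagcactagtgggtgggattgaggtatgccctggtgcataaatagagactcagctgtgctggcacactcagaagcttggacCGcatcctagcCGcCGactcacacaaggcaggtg
MGMT, chr10:129466991-129467290, plus strand: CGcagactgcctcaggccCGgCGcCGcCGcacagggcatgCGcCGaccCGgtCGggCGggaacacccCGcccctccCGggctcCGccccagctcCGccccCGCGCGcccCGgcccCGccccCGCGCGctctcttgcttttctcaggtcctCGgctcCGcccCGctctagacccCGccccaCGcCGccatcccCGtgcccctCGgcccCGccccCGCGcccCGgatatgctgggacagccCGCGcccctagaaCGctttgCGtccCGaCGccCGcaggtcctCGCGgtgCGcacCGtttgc
MTAP, chr9:21802386-21802685, plus strand: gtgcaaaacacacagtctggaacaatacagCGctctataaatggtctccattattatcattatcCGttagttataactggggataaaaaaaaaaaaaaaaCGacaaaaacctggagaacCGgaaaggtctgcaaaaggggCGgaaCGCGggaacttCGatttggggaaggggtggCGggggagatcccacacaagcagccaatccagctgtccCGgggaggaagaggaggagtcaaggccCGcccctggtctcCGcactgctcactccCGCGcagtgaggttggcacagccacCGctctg
The motif counted was CG, which reads the same on both strands. MGMT held 45, and 3.39% of the 27305 promoters in the table held at least as many. MTAP held 15 (48.8% of promoters), LDHB 14 (50.1%) and AGR2 6 (65.6%). The counts describe the letters in these windows, and DNA methylation was not measured.

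AGR2, a disulfide isomerase of mucus-secreting cells, had the largest difference of the genes on in replicate 2. It was at 13.46 on replicate 2 of Panc1005 and 12.91 on replicate 2 of SU8686, against 5.12, 4.89, 5.09 and 5.02 on the 4 others. The groups were far apart, and AGR2 was at least 132-fold higher, a bound set against the lowest signal among detected probes of the arrays where the gene was off. A further AGR2 probe differed by 6.29.

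LDHB, the heart-type subunit of lactate dehydrogenase, read 12.85 and 12.38 on replicate 2 of Panc1005 and SU8686 and 4.65 to 4.78 on the others, at least 89.3-fold higher. Its bead intensity before normalization was 7911 and 5488 against 70.47 to 80.26. LDHA, the muscle-type subunit of the same enzyme, was bright everywhere, at 14.59 and 15.16 in replicate 2 and 14.92 to 15.26 in the others. The arrays of the off state thus read only the A subunit above background, and those of the on state both subunits.

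The other 10 of the 12 largest differences among genes on in replicate 2 were between 6.33 and 7.35. ALOX5AP, which presents arachidonic acid to 5-lipoxygenase, was at 13.38 and 11.6 on replicate 2 of Panc1005 and SU8686 and at 4.83 to 5.48 on the others. The secreted or matrix proteins were FCGBP (difference 7.12), a mucus protein that binds the Fc part of IgG, DKK3 (6.98), of the Dickkopf family, the fibulin EFEMP1 (6.79) and the IGF-binding protein IGFBP3 (6.33). Membrane and intracellular members were FAM174B (6.73), the carboxypeptidase CPVL (6.71), LDOC1 (6.45), and the cholesterol exporter ABCG1 (6.36). RARRES1, a retinoid-induced membrane protein, averaged 6.45 higher but was at 8.27 on replicate 2 of Panc1005 and 14.89 on that of SU8686. All 12 were off on all 4 arrays of replicates 1 and 3.

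CDH2 was at 11.23 on replicate 2 of Panc1005, 8.03 on replicate 2 of SU8686 and 4.71 to 4.85 on the others, where it was not detected. It was at least 11.3-fold higher in replicate 2, and its bead intensity was 2758 and 379.7 against 77.84 to 88.96. CDH2 was on in replicate 2 of both names, but by 6.4 under Panc1005 and 3.25 under SU8686.

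**Figure D1:**
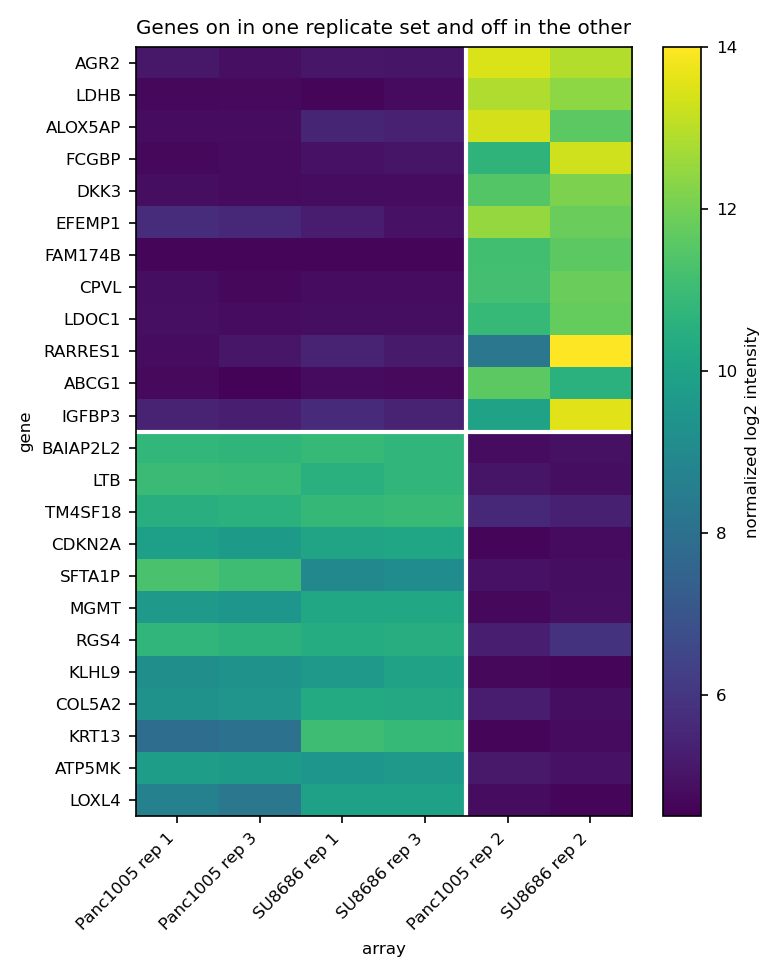
Normalized log2 intensity (colour) of the 12 genes of largest difference in each direction among those on in one replicate set and off in the other (rows), on the 6 arrays (columns). The upper 12 genes are bright on the 2 replicate 2 arrays only (AGR2 at 13.46 and 12.91), and the lower 12 on the 4 arrays of replicates 1 and 3 only (CDKN2A at 9.66 to 10.11).

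Among the 29 genes that were off in replicate 2, BAIAP2L2, a membrane-bending adaptor of the IRSp53 family, had the largest difference. It was at 10.8, 10.71, 10.87 and 10.74 on replicates 1 and 3 and at 4.81 and 4.92 on replicate 2, at least 27.6-fold lower. The cytokine lymphotoxin beta (LTB) followed, at 10.52 to 10.97 against 5.04 and 4.84. The difference was -5.23 for the tetraspan protein TM4SF18, -5.19 for the noncoding RNA SFTA1P, -4.96 for the G-protein regulator RGS4 and -4.58 for ATP5MK, a small subunit of ATP synthase.

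Matrix and epithelial genes were also on this side. The collagen chains COL5A2 and COL1A2 differed by -4.8 and -4.13, and LOXL4, which cross-links collagen, by -4.47. KRT13, a keratin of stratified epithelium, was at 7.9 and 8.06 on replicates 1 and 3 of Panc1005, at 11.04 and 10.85 on those of SU8686 and at 4.67 and 4.79 on replicate 2. It was higher under SU8686 among the arrays where it was on.

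MGMT, the enzyme that removes alkyl groups from guanine in DNA and so sets sensitivity to alkylating drugs, was at 9.64 and 9.48 on replicates 1 and 3 of Panc1005 and at 10.15 and 10.18 on those of SU8686. It was not detected on replicate 2, at 4.71 and 4.88, and was at least 14.6-fold lower. MGMT and the genes ATP5MK, SFTA1P and LOXL4 all lie on chromosome 10. That chromosome held 413 of the 10652 measured genes, 6 of the 29 off genes and 5 of the 141 genes on in replicate 2.

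CDKN2A was at 9.88 and 9.66 on replicates 1 and 3 of Panc1005, at 10.04 and 10.11 on those of SU8686, and at 4.64 and 4.77 on the 2 replicate 2 arrays. It was not detected on replicate 2 and was at least 15.3-fold lower there, with bead intensities of 63.41 and 82.06 against 853.7 to 1125. That probe is annotated to the ARF transcript. A probe annotated to the p16 transcript differed by -3.28 and was also off in replicate 2. A further probe was not detected on any of the 6 arrays and reads nothing here.

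MTAP, the neighbour of CDKN2A, was at 9.8 on both replicates 1 and 3 of Panc1005, at 9.34 and 9.47 on those of SU8686 and at 5.66 and 5.74 on replicate 2. It was at least 12.2-fold lower and was not detected there. KLHL9, an adaptor of a ubiquitin ligase, differed by -4.85 and FOCAD, a focal adhesion protein, by -3.29, both off in replicate 2. CDKN2B, which encodes the inhibitor p15, was at 7.67 to 9.03 against 5.36 and 5.97, at least 5.36-fold lower, and its difference of -2.75 missed the limit of 3.

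In gene order along chromosome 9, the low genes FOCAD, KLHL9, MTAP, CDKN2A and CDKN2B lay together. HACD4, between FOCAD and KLHL9, differed by -0.27, at 6.62 and 6.79 in replicate 2 against 6.67 to 7.19, and CDKN2B-AS1, which is antisense to CDKN2B, was higher by 1.27 (8.09 and 8.41 against 6.42 to 7.57). Both were detected on all 6 arrays. The next genes beyond CDKN2B were DMRTA1 (-0.45) and TUSC1, which was on the higher side by 1.93, followed by CAAP1 (-0.18), PLAA (-0.76) and the cilium gene IFT74 (-1.64). Of 25 genes from FOCAD to CDKN2B with a probe, 7 were measured, and 16 of the other 18 were interferon genes, which were not measured. DNA copy number was not measured here.

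**Figure D2:**
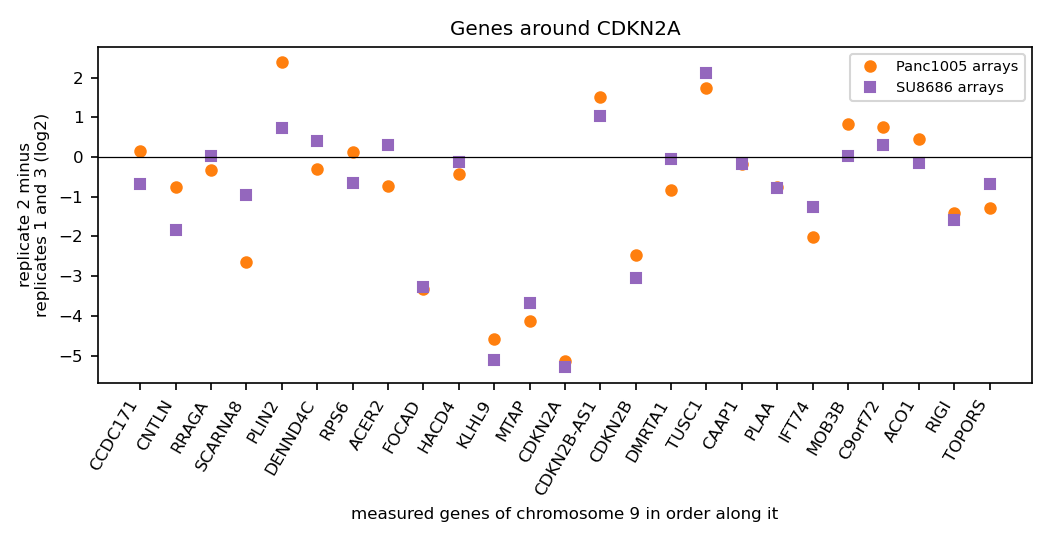
Difference of replicate 2 minus replicates 1 and 3 (log2) for measured genes of chromosome 9 in their order along it, separately for the Panc1005 arrays (circles) and the SU8686 arrays (squares). FOCAD, KLHL9, MTAP, CDKN2A and CDKN2B lie far below 0 under both names (CDKN2A at -5.13 and -5.3), with HACD4 and CDKN2B-AS1 among them near or above 0.

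The median of the tumour suppressors as a group was not shifted. Of 22 measured genes in that list, 4 (18.2%) were higher and 5 (22.7%) lower in replicate 2, against 13.8% and 12.7% of all genes, and their median difference was 0.01. The lower genes were CDKN2A, BRCA1, CDKN2B, NF2 and SMAD4. BRCA1 differed by -3.1, at 7.13 on replicate 2 of Panc1005 and 5.38 on that of SU8686, against 9.01 to 9.79. It was detected on 1 of these 2 arrays, and a further BRCA1 probe differed by -3.65. TGFBR2, a receptor of TGF-beta, was higher by 3.72, at 11.74 and 12.48 in replicate 2 against 8.32 to 8.5. A further TGFBR2 probe also differed by 3.72, and another, weakly lit probe by 0.72. CDKN1A, the p53-responsive inhibitor p21, was higher by 2.91, at 13.67 and 12.59 against 9.9 to 10.4.

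SMAD4, which carries the TGF-beta signal to the nucleus, was on in all 6 arrays, at 8.91 and 9.09 in replicate 2 and 10.06 to 10.25 in the others, a difference of -1.12. The kinase MAP2K4 was higher by 1.38 and TSC2, which restrains mTOR, by 1.53. NF2, the gene of merlin, differed by -1.38 and was detected on replicates 1 and 3 of Panc1005 only. RB1 was within 1 (0.59). Of 18 measured p53 target genes, 3 (16.7%, near the 13.8% of all genes) were higher and 0 lower, with a median of 0.14.

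Both states had bright epithelial keratins. KRT8 was at 13.33 and 13.36 in replicate 2 and 13.16 to 13.72 in the others, EPCAM at 13.83 and 14.25 against 13.6 to 13.89, and KRT19 at 13.73 and 14.11 against 14.19 to 15.03. KRT18 differed by 0.01. KRT7, a keratin of ductal cells, was higher by 1.37. CDH1 was at 13.43 and 13.68 against 11.73 to 12.41, a difference of 1.5, so that the replicate 2 arrays read both N-cadherin and more E-cadherin than the others.

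Of 17 measured epithelial regulators, 6 (35.3%) were higher and 1 (5.88%) was lower, with a median of 0.46. They included SPINT1 (2.48), an inhibitor of membrane proteases, and the transcription factors EHF (1.64) and GRHL2 (1.48). Of 12 measured claudin and tight junction genes, 2 (16.7%, near the 13.8% of all genes) were higher, CLDN10 (5.46) and CLDN1 (2.99). The other 10 were neither higher nor lower. CLDN10 was kept by the detection filter through replicate 2 alone. CDH6, a cadherin of kidney and mesenchymal tissue, was not detected on replicates 1 and 3 and was at 6.28 and 9.59 on replicate 2. Of 9 measured keratins 3 (33.3%) were higher and 2 (22.2%) lower. KRT23 was higher by 2.34, under SU8686 mostly (3.83 against 0.84), and KRT15 differed by -2.35.

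Mesenchymal genes went both ways. Of 18 measured, 6 (33.3%) were higher and 6 (33.3%) lower. The median was 0.73, with 1.33 on the Panc1005 arrays and -0.49 on those of SU8686. The collagen cross-linking enzyme LOX (3.99), COL5A1 (3.68) and the actin-binding protein TAGLN (3.36) were higher, whereas COL5A2 and COL1A2 were off. VIM, the mesenchymal intermediate filament, was on in all 6 arrays, at 12.37 and 10.54 in replicate 2 and 12.99 to 13.29 in the others. The 2 alpha chains of type V collagen in this list were thus read on opposite sides of the split.

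Secreted and surface products of ductal tumours differed strongly. MSLN (mesothelin) was at 11.7, 11.5, 12.38 and 12.33 on replicates 1 and 3 and at 6.91 and 6.36 on replicate 2, a difference of -5.34 without overlap. MUC1, a membrane mucin, was at 12.67 and 12.58 on replicates 1 and 3 of Panc1005 and 7.51 on its replicate 2, against 13.99, 14.07 and 12.52 under SU8686. SLPI, a protease inhibitor of mucosal secretions, was off on replicates 1 and 3 and at 8.91 and 12.64 on replicate 2. Of 9 measured mucins and secretory products, 4 (44.4%) were higher and 2 (22.2%) lower, against 13.8% and 12.7% of all genes. FCGBP and SLPI were kept by the detection filter through replicate 2 alone, so the filter favours a higher share.

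Of 30 genes on the array known from the classical subtype of pancreatic cancer, 7 were measured. Of the 7, 3 (42.9%, against 13.8% of all genes) were higher and 0 lower. The 3 were AGR2, the calcium-binding protein S100P (4.97) and the tetraspanin TSPAN8 (3.21), all on in replicate 2. All 3 were kept by the detection filter through replicate 2 alone, so the filter favours a higher share. TSPAN8 was at 5.99 on replicate 2 of Panc1005 and 10.96 on that of SU8686. Of 14 measured basal-like genes, 3 (21.4%) were higher and 4 (28.6%) lower, with a median of -0.38. LEMD1 was higher by 4.05. FOXA2, a transcription factor of foregut endoderm, was off on replicates 1 and 3 and at 11.65 and 8.43 on replicate 2. FOXA1 was on throughout and higher by 2.08, and MNX1, of the developing pancreas, was not detected in replicate 2, at 5.52 and 5.92 against 6.82 to 7.36. Of 9 measured pancreatic and foregut transcription factors 2 (22.2%) were higher and 1 (11.1%) was lower, with a median of 0.13. Of 12 neural and neuroendocrine genes 3 (25%) were higher and 5 (41.7%) lower, with a median of -0.61.

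Of 27 HOX genes on the array, which set position along the body axis, 11 were measured. Of the 11, 8 (72.7%, against 13.8% of all genes) were higher and 1 (9.09%) was lower, with a median of 2.21. HOXD1 was on in replicate 2 (8.59 and 7.58 against 4.57 to 4.62), and HOXB6 and HOXB2 were higher by 2.88 and 2.65. HOXD1 was kept by the detection filter through replicate 2 alone, so the filter favours a higher share. HOXC8 was the member that was lower, at 5.37 and 4.99 against 7.38 to 7.85. Apart from HOXD1, the higher HOX genes were all HOXB genes, which are neighbours in a cluster.

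Of 31 cancer-testis antigens on the array, which are expressed in germ cells and tumours, 12 were measured. Of the 12, 8 (66.7%, against 13.8% of all genes) were higher and 0 lower, with a median of 2.28. PAGE5 was at 9.18 and 9.6 against 5.18 to 5.76, and MAGEA10 at 9.11 and 9.06 against 4.95 to 5.44, both on in replicate 2. Both were kept by the detection filter through replicate 2 alone, so the filter favours a higher share. With no filter on dim probes, 1 of all the lists, in place of 9, had a median of at least 1 in size. MAGEA6 was higher by 4.22. Genes of the MAGEA family are close copies, and a probe of one may read another. Chromosome X, where PAGE5 and the MAGEA genes lie, held 376 of the measured genes and 18 of the 141 that were on in replicate 2.

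Of 22 imprinted genes on the array, which are normally read from a single parental copy, 13 were measured. Of the 13, 8 (61.5%, against 13.8% of all genes) were higher and 0 lower, with a median of 1.43. SGCE was on in replicate 2, at 11.41 and 11.48 against 5.48 to 5.81, at least 39.6-fold higher. SGCE was kept by the detection filter through replicate 2 alone, so the filter favours a higher share. SNRPN and SNURF, which share a locus and overlapping transcripts, were higher by 3.02 and 2.9.

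**Figure D3:**
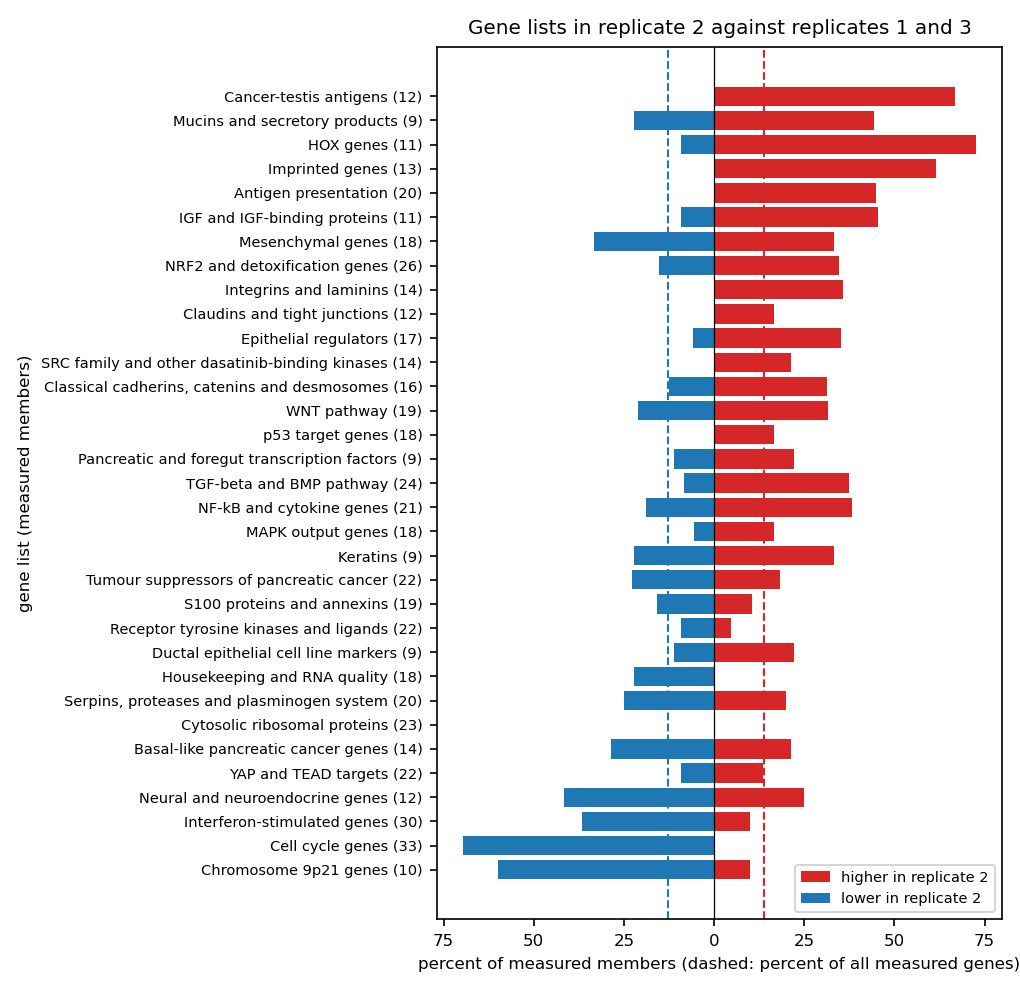
Percent of the measured members of each gene list that were higher (right) or lower (left) in replicate 2 than in replicates 1 and 3 by at least 1 with no overlap, for lists of at least 9 measured genes, ordered by median difference. Dashed lines mark the shares over all genes, 13.8% and 12.7%. Cancer-testis, HOX and imprinted genes lie to the right and cell cycle genes, at 69.7% lower, to the left. Members detected in 1 set of arrays alone passed the detection filter, which favours larger shares on either side.

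Of 20 measured antigen presentation genes, 9 (45%) were higher in replicate 2, 0 were lower and 11 were neither, with a median of 1.13. HLA-DPA1 was at 9.57 and 11.41 on replicate 2, at 4.77 and 4.85 on replicates 1 and 3 of Panc1005, and at 6.9 and 6.7 on those of SU8686. HLA-DRA was higher by 3.91, the peptide-loading gene HLA-DMB by 3.54 and the invariant chain CD74 by 2.73. HLA-B was higher by 1.65 and B2M, the light chain of class I molecules, by 0.44. Genes of the HLA family are close copies, so a probe may read several.

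Of 30 measured interferon-stimulated genes, 3 (10%) were higher and 11 (36.7%) lower, with a median of -0.86. IFIT1, which binds viral RNA, was at 11.42 to 12.63 on replicates 1 and 3 and 6.76 and 8.58 on replicate 2. OASL and IFITM1 differed by -4.33 and -3.95. The 3 higher genes were IRF7, a transcription factor of the interferon response that was on in replicate 2 (9.98 and 10.01 against 5.25 to 5.41), and the antiviral GTPases MX1 (3.6) and MX2 (3.76).

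Cytokine genes were split. Of 21 measured NF-kB and cytokine genes, 8 (38.1%) were higher and 4 (19%) lower, with a median of 0.03. PTGS2, the inducible cyclooxygenase, was at 10.97 and 14.76 on replicate 2 and 6.35 to 7.4 on the others. The chemokines CCL20 (5.77) and CXCL5 (4.87) were higher, and the chemokine CCL5 (-4.74) and the cytokine IL32 (-4.65) were lower.

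Cell cycle genes were lower as a group. Of 33 measured, 0 were higher and 23 (69.7%) lower, and the median was -1.63, with -0.9 on the Panc1005 arrays and -2.13 on those of SU8686. MCM4, a subunit of the replicative helicase, was at 9.64 and 9.18 in replicate 2 and 12.08 to 12.76 in the others. MCM6 and MCM5 of the same helicase differed by -2.68 and -2.64, and the sliding clamp PCNA by -2.6. Over the 23 measured ribosomal protein genes 0 were higher and 0 lower, with a median of -0.36, and of 18 housekeeping genes 0 were higher and 4 lower, with a median of -0.19.

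Among growth factor genes, 11 of a list of IGF and IGF-binding genes were measured. Of the 11, 5 (45.5%) were higher and 1 (9.09%), IGFBP6, was lower, against 13.8% and 12.7% of all genes. The 3 that were on in replicate 2, where 1.32% of all genes were, were IGF-binding proteins. All 3 were kept by the detection filter through replicate 2 alone, so the filter favours a higher share. IGFBP4 was at 10.53 and 10.91 against 4.97 to 5.58 and IGFBP2 at 8.42 and 9.69 against 4.97 to 5.46, beside IGFBP3 above. Of 24 measured genes of the TGF-beta and BMP pathway, 9 (37.5%) were higher and 2 (8.33%) lower, with a median of 0.08. The ligand TGFB2 was on in replicate 2 (8.44 and 8.01 against 4.92 to 5.26), as was the activin antagonist FST, and the decoy receptor BAMBI differed by -3.45.

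Of 19 measured WNT pathway genes 6 (31.6%) were higher and 4 (21.1%) lower, with a median of 0.16. The secreted antagonists DKK3 and SFRP1 (3.1) were on in replicate 2, and the ligand WNT3 differed by -2.85. Of 26 measured NRF2 and detoxification genes 9 (34.6%) were higher and 4 (15.4%) lower, with a median of 0.72. The aldo-keto reductases AKR1C2 and AKR1C3 were higher by 6.08 and 4.13. ALDH1A1, which oxidises retinal, was at 11.6, 11.61, 12.69 and 12.71 on replicates 1 and 3 and 5.3 and 7.93 on replicate 2. The AKR1C genes are close copies, and their probes may read each other.

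Of 14 measured kinases that dasatinib binds, 3 (21.4%, against 13.8% of all genes) were higher and 0 lower, with a median of 0.34. SRC was at 10.88 and 11.13 in replicate 2 and 9.33 to 9.83 in the others, FYN was higher by 2.26 and SIK1 by 1.26. Of 22 receptor tyrosine kinases and their ligands, 1 (4.55%) was higher (EPHB6, 1.64) and 2 (9.09%) were lower, among them ROR1 (-1.4). Of 18 measured genes downstream of MAPK, 3 (16.7%, against 13.8% of all genes) were higher, 1 (5.56%) was lower and 14 were neither, with a median of 0.02. The phosphatases DUSP4 (3.13) and DUSP6 (1.95) were among the higher. The AP-1 subunit FOSL1 was the lower gene, at 10.82 and 6.16 against 10.84 to 11.76.

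The differences were not spread evenly over the chromosomes. On chromosome 10 the median was -0.65 and 33.4% of 413 genes were lower, and on chromosome 22 it was -0.62, with 30.8% of 273 genes lower and 2.56% higher. Chromosome 9 had a median of -0.44, and chromosomes 14 and 18 had -0.33 each. On the other side were chromosomes 13 (0.47, 25.8% of 194 genes higher and 2.06% lower), 21 (0.32), 20 (0.31) and 11 (0.26). The medians lay close together under the 2 names, at -0.6 and -0.71 on chromosome 10 and 0.37 and 0.54 on chromosome 13. These arrays read RNA, and DNA was not measured here.

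**Figure D4:**
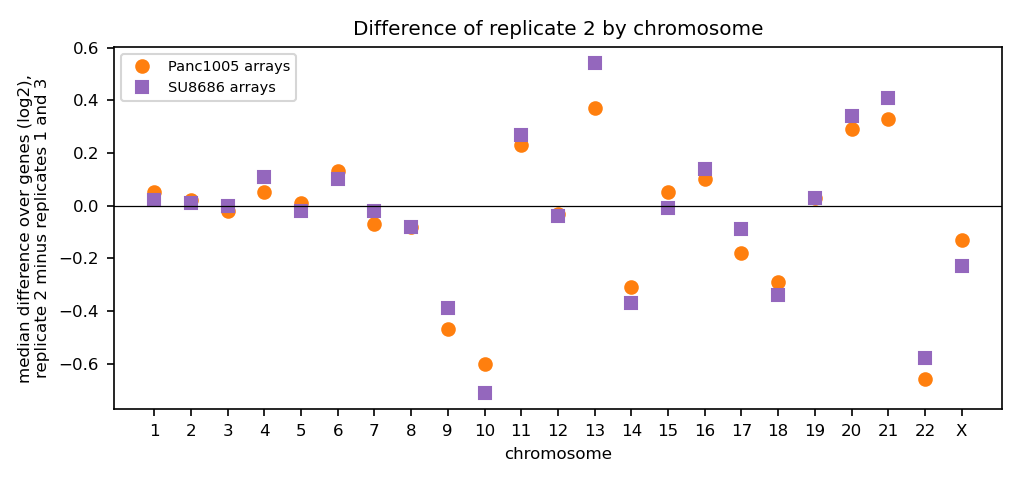
Median difference of replicate 2 minus replicates 1 and 3 (log2) over the measured genes of each chromosome, for the Panc1005 arrays (circles) and the SU8686 arrays (squares). Chromosomes 10 and 22 lie lowest and chromosome 13 highest under both names.

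The split was similar but not equal under the 2 names. Taken separately, 153 genes were on in replicate 2 and 42 off under Panc1005, and 159 and 54 under SU8686. Of these, 84 on genes were shared, 54.9% of the Panc1005 list and 52.8% of the SU8686 list, and 24 off genes, 57.1% and 44.4%. No gene was on in replicate 2 under one name and off under the other. Over all genes, 1115 were higher and 924 lower by at least 1 under both names, while 24 were higher under Panc1005 and lower under SU8686 and 4 the reverse. These comparisons come from the same rule and are a description.

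**Figure D5:**
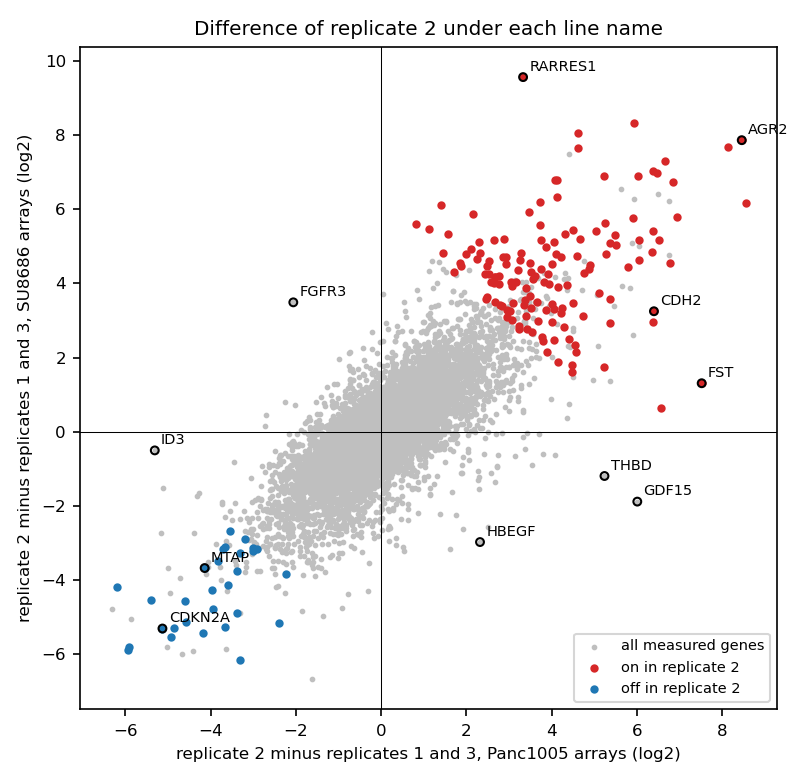
Difference of replicate 2 minus replicates 1 and 3 (log2) on the Panc1005 arrays (horizontal) and the SU8686 arrays (vertical) for all measured genes (grey), genes on in replicate 2 (red) and genes off in replicate 2 (blue). Most genes lie along the diagonal, and GDF15 (6.01 and -1.88), THBD, HBEGF and FGFR3 lie in the opposite quadrants.

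The labelled lines were also compared within each state, which is a difference other than the split itself. limma's moderated test, with Benjamini-Hochberg adjustment over 10652 genes, took its spread from the 6 pairs of replicates 1 and 3. The labels call the replicates biological triplicates and name no separate cultures, so the p-values measure the spread between these arrays, which may be technical. Replicate 2 had its own mean in the fit, so its distance from replicates 1 and 3 is left out of that spread. The split was chosen from these same values, so the spread may be too small and the p-values too low. Within replicates 1 and 3, 435 genes (4.08%) were higher and 140 (1.31%) lower in SU8686 than in Panc1005, at an adjusted p under 0.05 and at least 1 on the log2 scale, together 5.4% of genes. Higher calls were 75.7% of these, and 91.4% with no background correction (233 and 22 genes) or 90.8% on the authors' log2 values.

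S100A8, a calcium-binding alarmin, was at 5.83 and 5.73 on Panc1005 and 10.82 and 10.7 on SU8686 in replicates 1 and 3 (difference 4.98 ± 0.12, SE, limma adjusted p = 1.54e-08). The interferon-induced IFI27 was not detected on Panc1005 and was at 10.45 and 10.03 on SU8686 (limma adjusted p = 1.57e-08). The T-cell inhibitor VTCN1 was higher by 4.0 ± 0.11 and the acute-phase serpin SERPINA3 by 3.74 ± 0.09 (limma adjusted p = 1.54e-08 for both). In the other direction MARCHF4, a membrane ubiquitin ligase, was at 9.21 and 9.3 on Panc1005 and 6.45 and 6.64 on SU8686 (-2.71 ± 0.12, limma adjusted p = 4.67e-07).

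Within replicate 2 the names differed in more genes. There 1120 genes (10.5%) were higher and 1046 (9.82%) lower in SU8686, together 20.3% of genes. Each name had 1 array here, so these calls have no replicate check: they rest on the assumption, which these data cannot test, that the lone arrays vary as the pairs of replicates 1 and 3 did. The values below are therefore given without p-values. S100A8 was at 6.53 on Panc1005 and 12 on SU8686, VTCN1 at 5.11 and 11.92 and MARCHF4 at 10.19 and 7.53. The apoptosis ligand TNFSF10 was at 5.24 and 11.56, beside 5.43, 5.49, 8.91 and 8.82 on replicates 1 and 3. For S100A8, VTCN1 and TNFSF10 the arrays named SU8686 were thus the higher in both states, and for MARCHF4 those named Panc1005.

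FST, an activin antagonist, was at 12.52 on replicate 2 of Panc1005 and 6.23 on that of SU8686, and at 4.87 to 5.12 on the others, where it was off. The uridine phosphorylase UPP1 was at 15.03 on replicate 2 of Panc1005 and 9.48 on that of SU8686, against 10.93, 10.99, 10.05 and 10.15. The cornified envelope protein SPRR2D was at 12.09 and 6.16, and off on the others. Replicate 2 of Panc1005 was the high array for FST, UPP1 and SPRR2D.

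How far replicate 2 stood from replicates 1 and 3 could also be set side by side for the 2 names, with 1 replicate 2 array each and on the same assumption, so that this too is a description. On that assumption limma called 1655 genes (15.5%), of which 727 (6.83%) stood higher against their own replicates 1 and 3 in replicate 2 of SU8686 and 928 (8.71%) in that of Panc1005. GDF15, a stress-induced cytokine, was at 6.66 and 6.26 on replicates 1 and 3 of Panc1005 and 12.47 on its replicate 2, and at 8.71, 8.95 and 6.94 on the same arrays of SU8686. Thrombomodulin (THBD) was at 6.52, 6.22 and 11.61 under Panc1005 and 6.96, 6.02 and 5.3 under SU8686. The receptor FGFR3 was at 7.39, 7.27 and 5.27 under Panc1005 and 8.15, 7.96 and 11.54 under SU8686. GDF15, THBD and FGFR3 differed in opposite directions under the 2 names.

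ID3, an inhibitor of helix-loop-helix factors, was at 11.18 and 11.23 on replicates 1 and 3 of Panc1005 and 5.9 on its replicate 2, and at 11.68, 11.78 and 11.23 under SU8686. The growth factor HBEGF was at 10.57, 10.61 and 12.91 under Panc1005 and 9.91, 9.92 and 6.95 under SU8686. Protocadherin PCDH20 was on in replicate 2 alone, at 6.34 and 11.06. The split under SU8686 minus that under Panc1005 was 6.23 for RARRES1 and -3.14 for CDH2, but -0.17 for CDKN2A and 0.47 for MTAP. CDKN2A and MTAP were not detected on replicate 2 of either name, so their values carry only the levels of replicates 1 and 3.

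Metallothioneins bind zinc and copper, and on replicate 2 they read lower against their own replicates 1 and 3 under SU8686 than under Panc1005. MT1X was at 12.07 and 12.18 on replicates 1 and 3 of Panc1005 and 11.84 on its replicate 2, and at 12.84, 12.98 and 9.37 under SU8686. The split under SU8686 minus that under Panc1005 was -3.25 for MT1X, -2.81 for MT1E, -3.62 for MT1M, -2.4 for MT2A, -1.44 for MT1F and -1.41 for MT1G. MT1F went the other way from MT1X in the split itself: it was higher in replicate 2, by 2.03 under Panc1005 and 0.59 under SU8686. The median difference of the 6 measured metallothioneins was 0.16 under Panc1005 and -2.61 under SU8686.

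The other slides carry replicate 2 arrays of 4 further names, measured with the same probes. Of the 141 genes on in replicate 2 here, 16 (11.3%) were on and off in the same way on the slide of Panc0403 and Panc0504, where 0.798% of all 10652 genes were. On the slide of MiaPaCa2 and Panc1 the count was 19 (13.5%), with 1.51% of all genes. CDH2, DKK3 and LDHB were on in replicate 2 on all 3 slides, and 109 of the 141 genes were not on in this way on either of the other slides. Of the 29 off genes, 2 (6.9%) were off in the same way on the slide of Panc0403 and Panc0504, with 0.46% of all genes. There 1 (3.45%) was the reverse, with 0.798% of all genes. On the slide of MiaPaCa2 and Panc1, 3 (10.3%) were off in the same way, with 0.591% of all genes. There 4 (13.8%) were the reverse, with 1.51% of all genes, among them KLHL9, which was higher by 4.61. Of the 141 on genes, 4 (2.84%) were the reverse on the slide of Panc0403 and Panc0504, with 0.46% of all genes. On the slide of MiaPaCa2 and Panc1, 1 (0.709%) was the reverse, with 0.591% of all genes. The shares in the reverse direction were above those of all genes, but each rested on 1 or 4 genes. The share of 0.709% lay near the 0.591% of all genes. CDKN2A differed by -5.72 on the slide of Panc0403 and Panc0504, where MTAP differed by -0.82.

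Most markers of other cell types were not detected, but some were bright and moved with the split. Of 13 leukocyte markers on the array 8 were not detected on any of the 6 arrays, among them PTPRC and CD3D, and the summed level of the list was 3689 to 3946 in replicate 2 and 1647 to 2939 in the others. LAPTM5, a lysosomal protein of blood cells, was the member that was on in replicate 2 (11.08 and 10.61 against 4.92 to 5.47). Of 12 endothelial and blood markers 7 were never detected, including VWF and KDR, and the sum was 850.1 to 1824 against 619.6 to 706.2. PECAM1 was at 6.52 and 10.07 on replicate 2 and 5.19 to 6.27 on the others. Of 11 fibroblast markers 6 were never detected, among them DCN and PDGFRB, with sums of 783 to 1194 and 1086 to 2262, and of 13 acinar and islet markers 10 were never detected. The ductal epithelial list summed to 70780 to 77450 in replicate 2 and 62060 to 92660 in the others. COL1A2, of the fibroblast list, was off in replicate 2 and on in the others, as given above. The part of other cells in the results was not tested.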

How the data were processed

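Total RNA of 6 named cell lines was read on 18 arrays. For 48107 probes the deposited table held an intensity and a detection p-value on each array, per the file headers, with no normalization visible in the intensities. The image software is not given in the sources used here. Log2 values of 47323 probes deposited by the authors served as an alternative. On the 6 arrays they ranked probes as the intensities did and shared a distribution (sorted values within 0.0209) with a median of 6.99; their background treatment stays unknown. Background was corrected with normexp on negative controls inferred from the detection p-values (offset 16), followed by quantile normalization of 18 arrays and log2 (neqc, limma 3.58.1, R 4.3.3). The offset makes differences of dim genes too small. The platform annotation named 30113 probes by 1 symbol. Probes detected at p under 0.01 on at least 2 of the 6 arrays were kept, with the brightest per gene, which gave 10652 genes. Of the 170 on and off genes, 37 had further detected probes, and in 0 did these go the opposite way.

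For the line comparisons limma fitted 12 means (line by replicate set) with 6 residual degrees of freedom and Benjamini-Hochberg adjustment. On simulated data, 200 genes changed by 2 (log2) were recovered at 100% for the line comparison in replicates 1 and 3 and at 90% for the difference between lines, with 0 and 8 false calls. The simulation does not test whether the lone replicate 2 arrays vary as the pairs of replicates 1 and 3 did, so it is no check on the calls for the difference between lines. Slide was shared by the 6 arrays and could not act as a batch among them. The number of arrays limits the precision.

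The named genes were the 12 of largest difference in each direction among on and off genes, the 3 of largest difference in each list, the genes of chromosome 9 around CDKN2A, the tumour suppressors, the 5 of largest difference in each direction per limma comparison and fixed cell line markers, of which only some are printed. MTAP, CDKN2A and CDH2 were given with the split. LDHA, MT1F, MT1G, MT2A, NSUN7, PLA2G7, SRPX, HSD17B14, ZNF586 and TSPAN33 were chosen after their values were seen. The split, the members and the lists were chosen with earlier results of these data known.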

Additional observations from a re-analysis of the deposited data

Results flagged for a closer look

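The size of the split was set side by side for the line names, as SU8686 minus Panc1005 in replicate 2 minus replicates 1 and 3. limma (Benjamini-Hochberg adjusted p under 0.05 and at least 1 on the log2 scale) called 727 genes toward SU8686 and 928 toward Panc1005. Replicate 2 had 1 array per name, so the calls have no replicate check and rest on the untested assumption that these arrays vary as the pairs of replicates 1 and 3 did; the values are descriptions of these arrays. Each value below is that difference on the log2 scale, and a positive value means that replicate 2 stood higher against its own replicates 1 and 3 under SU8686.

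Among secreted and surface proteins, positive values were those of RARRES1 (6.23), FGFR3 (5.55), TSPAN8 (4.8), PCDH20 (4.71), MUC1 (3.6), IGFBP3 (3.42), CDH6 (3.42), TNFSF10 (2.91), VTCN1 (2.82), SLPI (2.74), PECAM1 (2.7), CLDN10 (2.66), FCGBP (2.39) and IGFBP2 (1.16). Negative values were those of GDF15 (-7.9), THBD (-6.43), FST (-6.21), HBEGF (-5.29), SERPINA3 (-5.05), CDH2 (-3.14), MSLN (-1.31), CLDN1 (-1.26) and ABCG1 (-1.15). CDH2 and FST therefore stood out more on replicate 2 of Panc1005, and RARRES1 and TSPAN8 more on that of SU8686.

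Matrix, cytoskeletal and epithelial genes had values of 2.99 (KRT23), -2.84 (KRT13), -5.94 (SPRR2D), -2.15 (TAGLN), -1.99 (VIM), -1.6 (LOXL4), -1.52 (COL1A2), -1.22 (COL5A2) and -1.05 (LOX). All of these but KRT23 were negative, among the genes named in the text. KRT13, LOXL4, COL1A2 and COL5A2 were not detected on replicate 2 of either name. Their values therefore carry only how bright they were on replicates 1 and 3 of each name. Inflammatory and interferon genes had values of 3.07 (PTGS2), 2.43 (IFITM1), 1.34 (OASL), -3.99 (IFI27), -2.39 (ALOX5AP), -2.21 (CCL5), -1.99 (CCL20), -1.97 (CXCL5) and -1.78 (MX1). IFI27 was likewise not detected on replicate 2 of either name.

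Regulators and enzymes had values of 4.81 (ID3), 1.54 (ALDH1A1), 1.07 (MCM6), -4.69 (UPP1), -3.82 (FOSL1), -3.4 (FOXA2), -1.44 (CDKN1A), -1.34 (DUSP4), -1.22 (FYN) and -1.06 (HOXD1). The metallothioneins MT1M (-3.62), MT1X (-3.25), MT1E (-2.81), MT2A (-2.4), MT1F (-1.44) and MT1G (-1.41) were negative, and the noncoding RNA SFTA1P was at 2. SFTA1P was not detected on replicate 2 of either name, so its value carries only the levels of replicates 1 and 3.

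Probes with no gene name in the platform annotation were outside the comparisons. Among 17202 of them, 28 were on in replicate 2 and off in replicates 1 and 3, and 5 were the reverse.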

How the results depend on the processing

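There was 1 array per name in replicate 2, which limits these results, and dim probes have only bounds. The counts depended mainly on the background correction. With no background correction, 891 genes were lower in replicate 2 in place of 1354, 50 were on and 12 off in place of 141 and 29; SU8686 against Panc1005 gave 233 higher and 22 lower in replicates 1 and 3 and 695 lower in replicate 2; and the difference between the names gave 410 and 570. On the authors' log2 values these counts were 859, 50, 12, 217 and 22, then 725 higher and 675 lower in replicate 2, and 390 and 549. With an offset of 50 they were 70 on, 17 off and 55 lower in replicates 1 and 3. By construction a larger offset or no correction compresses dim values, and fewer genes reach a difference of 1 or 3. With no filter on dim probes 1 list in place of 9 had a median of at least 1 in size. On the SU8686 arrays alone 54 genes were off. Signs turned for TNFSF10 (-0.22), MT1M (0.51) and the metallothionein median (0.16) on the Panc1005 arrays alone. On the SU8686 arrays alone they turned for THBD (-1.19), UPP1 (-0.62) and GDF15 (-1.88). Among the named genes followed through the settings, no other with a difference of at least 1 in size changed sign. BRCA1 was not followed in this way.

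Without replicate 1 or 3, 1493 to 1507 genes were higher, 1356 to 1410 lower, 146 to 150 on and 30 off. Leaving out an array of the pairs gave 440 to 474 higher and 138 to 171 lower genes in replicates 1 and 3, 1120 to 1121 and 1046 to 1048 in replicate 2, and 730 to 762 and 924 to 944 for the difference between the names. The deviations of same-numbered arrays of the 2 names correlated at r = 0.006, so the numbers were not taken to pair samples. With a replicate block the counts were 435 and 140, 1121 and 1045, and 725 and 925. The median over all genes stayed between -0.03 and -0.01 in all settings.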
